A study of Mus musculus with 6 samples.

Results

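Troponin I and troponin C each come in a slow and a fast skeletal form, and the 4 genes that encode them, Tnni1, Tnni2, Tnnc1 and Tnnc2, were followed in cultured mouse muscle fibres under electrical stimulation. They were chosen by the gene symbol of the probe in the platform annotation. Probes 43 to 48 carry Tnni1, probes 49 to 54 Tnni2, probes 55 to 60 Tnnc1 and probes 61 to 66 Tnnc2. They make up 4 of the 22 probe sets on the array, or 24 of its 132 probes, and each gene was spotted 6 times. Fibres of the flexor digitorum brevis (FDB), a small foot muscle, were dissociated from whole muscles of CD-1 mice aged 4 to 5 weeks and were in culture up to day 3. Stimulated fibres received 3 days of an electrical pattern typical of slow-twitch muscle, and control fibres had the same culture without stimulation. The labels give no genetic change for either group, and each extract pooled over 100 fibres. There were 3 independent experiments, each with 2 arrays of opposite dye orientation, so that stimulated RNA was in Cy3 on 1 array and in Cy5 on the other.

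The troponin complex sits on the thin filament and makes contraction depend on calcium. Troponin C binds calcium, troponin I blocks the interaction of actin with myosin until troponin C releases it, and troponin T anchors both to tropomyosin. Tnni1 encodes slow skeletal troponin I and Tnni2 the fast skeletal form, Tnnc1 encodes the troponin C of slow skeletal and cardiac muscle and Tnnc2 the fast skeletal form. Slow and fast forms mark the contractile type of a fibre, and nerve activity or chronic low-frequency stimulation is known to shift the balance between them. Troponin T was not analysed here.

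The values are log2 ratios of stimulated over control RNA, so a positive value means a higher signal in stimulated fibres. They give no level of a gene in either group, and no gene was compared with another for abundance. In an extract of many fibres, fewer cells of a type and less RNA per cell cannot be told apart. Every one of the 4 genes had a value for all 6 spots on all 6 arrays, which held for 8 probe sets in all. Spots of a gene on an array had an SD between 0.044 and 0.23 log2 units over the 24 combinations of troponin gene and array. The median spot SD of the 4 genes was 0.079, against 0.095 in the other complete probe sets. The largest, 0.23, was that of Tnnc2 on the Cy3 array of experiment 1, close in size to its mean of -0.25.

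The array as a whole leaves 1 doubt about direction. Between 88 and 102 of the 132 probes had a value on an array, and 15 probe sets had values in all 3 experiments and were tested. In the value table, the ratios of 15 probe sets correlated at 0.89 to 0.92 within a dye swap and at 0.44 to 0.78 between arrays of different experiments. The latter were 0.59 to 0.78 for experiments 1 and 2, 0.44 to 0.59 for experiments 1 and 3, and 0.46 to 0.54 for experiments 2 and 3. In the scanner files arrays correlated at 0.34 to 0.45 within a dye swap over 144 spots. Arrays of experiment 1 correlated at -0.37 to 0.027 with those of the other experiments, with 7 of 8 values below 0, and arrays of experiment 2 correlated at -0.047 to 0.16 with those of experiment 3. The lowest value was between the Cy5 arrays of experiments 1 and 2, whose Cy3 arrays correlated at -0.00081. That pair alone does not tell which experiment is the odd one. Scanner values below 0 were more frequent with experiment 1, but 2 of 4 scanner values between experiments 2 and 3 also lay below 0. In the value table, experiment 1 correlated with experiment 2 more highly than experiment 3 did. Direction is therefore not settled, and the log2 ratios of the 4 genes and their differences are given as the sample titles state and with experiment 1 turned. Experiment 2 turned was added after the data were seen, and its values stand with the other settings. Of muscle fibre markers, 6 of 9 were on the array and 5 were tested, with 1 called higher and 2 called lower. Of 6 fibroblast markers 1 was on the array and it could not be tested. Markers of endothelium, satellite cells, macrophages, Schwann cells and smooth muscle were not on it, so the part of other cell types in the results was not tested.

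Upstream sequence is shown for the members for which it was on hand, since slow and fast forms are controlled as separate genes. Each window covers the 250 bases before the annotated start of the gene in RefSeq, build GRCm38.p6, written 5′ to 3′ on the strand of the gene. Capitals mark the E-box (CANNTG), the motif that myogenic basic helix-loop-helix factors bind. Windows were found for 3 of the 4 genes, and Tnni2 is named only.
Tnni1 (chr1:135799171-135799420, + strand): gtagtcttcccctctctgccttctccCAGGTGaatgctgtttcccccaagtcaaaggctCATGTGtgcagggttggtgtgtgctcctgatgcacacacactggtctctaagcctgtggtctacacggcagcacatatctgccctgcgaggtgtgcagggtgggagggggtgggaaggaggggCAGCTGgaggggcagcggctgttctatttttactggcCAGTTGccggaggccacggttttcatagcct
Tnnc1 (chr14:31208062-31208311, + strand): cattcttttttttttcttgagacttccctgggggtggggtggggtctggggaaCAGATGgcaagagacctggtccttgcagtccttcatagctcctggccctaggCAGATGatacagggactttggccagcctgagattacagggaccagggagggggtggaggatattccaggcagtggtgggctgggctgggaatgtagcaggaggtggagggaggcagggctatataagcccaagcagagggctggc
Tnnc2 (chr2:164779735-164779984, - strand): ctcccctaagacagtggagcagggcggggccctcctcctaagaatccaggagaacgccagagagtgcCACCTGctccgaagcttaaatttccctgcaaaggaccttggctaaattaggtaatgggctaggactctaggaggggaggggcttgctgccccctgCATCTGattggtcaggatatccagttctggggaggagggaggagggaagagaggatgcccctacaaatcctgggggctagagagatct
The Tnni1 window held 4 E-boxes, and the windows of Tnnc1 and Tnnc2 held 2 each. A second annotated start of Tnni1, with the window chr1:135799261-135799510, lies in the same region, and that window held 2 of the same E-boxes. At least 1 E-box occurred in 66.2% of 32851 such windows in RefSeq. That share bears on the presence of an E-box and not on the number per window, for which no background was counted. The MEF2 motif and the CArG box, searched on both strands, had 0 matches in all of these windows, and they occurred in 2.92% and 1.47% of windows. A match is a description of letters and not of binding.

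Slow troponin I was higher in stimulated fibres in all 3 experiments, but the difference did not pass the test. The Tnni1 log2 ratio was 0.36 with stimulated RNA in Cy3 and 0.34 with stimulated RNA in Cy5 in experiment 1. It was 0.31 and 0.065 in experiment 2, and 0.31 and 0.53 in experiment 3, in the same order of dyes. All 6 arrays lay above 0, as did all 36 spots, and only the Cy5 array of experiment 2 came close to 0. By experiment the ratio was 0.35, 0.19 and 0.42. The mean was 0.32 ± 0.12 (SD, n = 3), a 1.25-fold higher signal in stimulated fibres, with a limma standard error of 0.14. The unadjusted limma p was 0.0415 and the adjusted p over 15 probe sets was 0.0779. In experiments 2 and 3 the arrays of a swap differed by 0.24 and -0.22 (Cy3 minus Cy5 orientation), close to the whole range of 0.24 between experiments. The mean was 0.084 ± 0.40 once experiment 1 was turned.

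Fast troponin I fell in stimulated fibres. Tnni2 was the member of the 4 that passed the threshold, at an adjusted p under 0.05 in limma, where 46.7% of the tested probe sets passed in either direction, 33.3% as lower and 13.3% as higher. A single call among 4 genes is not above that share. The Tnni2 log2 ratio was -0.39 with stimulated RNA in Cy3 and -0.43 with stimulated RNA in Cy5 in experiment 1. It was -0.36 and -0.047 in experiment 2, and -0.69 and -0.69 in experiment 3. All 6 arrays and 35 of 36 spots lay below 0, and the exception was a spot at 0.012 on the Cy5 array of experiment 2. By experiment the ratio was -0.41, -0.20 and -0.69. The mean was -0.43 ± 0.24 (SD, n = 3), or 0.740 times the control signal, with a limma standard error of 0.15 and an adjusted p of 0.0316. The call was lost without any 1 of the experiments: the limma adjusted p was 0.166 without experiment 1, 0.0986 without experiment 2 and 0.148 without experiment 3. The mean was then -0.45, -0.55 and -0.31. With experiment 1 turned, the mean was -0.16 ± 0.55 and the limma adjusted p was 0.892.

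**Figure D1:**
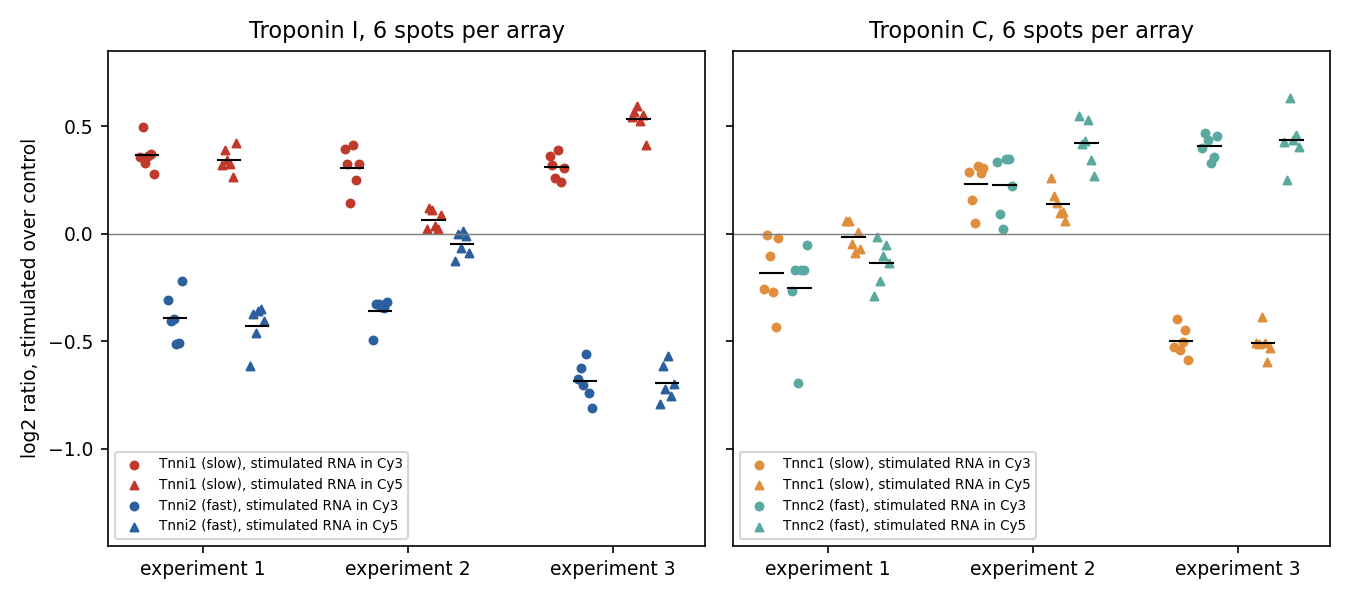
Log2 ratio of stimulated over control RNA for each of the 6 spots of Tnni1, Tnni2, Tnnc1 and Tnnc2 (vertical axis) on the 6 arrays, ordered by experiment and by the dye that held the stimulated RNA. All Tnni1 spots lie above 0 and all Tnni2 spots but 1 lie below it, whereas the spots of Tnnc1 and Tnnc2 lie on both sides of 0 depending on the experiment.

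Slow troponin C lay above 0 in 1 experiment and below it in the other two, and it did not pass the test. The Tnnc1 log2 ratio was -0.18 with stimulated RNA in Cy3 and -0.014 with stimulated RNA in Cy5 in experiment 1. It was 0.23 and 0.14 in experiment 2, and -0.50 and -0.51 in experiment 3. Both arrays of experiment 2 lay above 0 with all their spots, both arrays of experiment 3 lay below it with all their spots, and experiment 1 lay between them. By experiment the ratio was -0.098, 0.19 and -0.50. The mean was -0.14 ± 0.35 (SD, n = 3), with a limma standard error of 0.16 and a limma adjusted p of 0.509. The mean was 0.044 without experiment 3 and -0.30 without experiment 2. With the sign of experiment 1 turned it was -0.074 ± 0.38. The arrays of a swap differed by 0.17 or less in size, against a range of 0.69 between experiments.

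Fast troponin C did not pass the test either. The Tnnc2 log2 ratio was -0.25 with stimulated RNA in Cy3 and -0.14 with stimulated RNA in Cy5 in experiment 1. It was 0.23 and 0.42 in experiment 2, and 0.41 and 0.43 in experiment 3. All spots of experiment 1 lay below 0 and all spots of experiments 2 and 3 lay above it. By experiment the ratio was -0.19, 0.32 and 0.42. The mean was 0.18 ± 0.33 (SD, n = 3), with a limma standard error of 0.16 and a limma adjusted p of 0.374. With experiment 1 turned, the 3 experiments lay closer together, with a mean of 0.31 ± 0.11. The limma adjusted p was then 0.892, with a standard error shared over the probe sets of 0.29. The mean was 0.37 without experiment 1 (limma adjusted p 0.125), 0.11 without experiment 2 (0.639) and 0.065 without experiment 3 (0.933). Turning experiment 2 in place of experiment 1 gave -0.033. The spread of Tnnc2 between experiments was thus larger with experiment 1 as titled than with it turned, whereas the SDs of Tnni1, Tnni2 and Tnnc1 were larger with it turned (0.40, 0.55 and 0.38 turned, against 0.12, 0.24 and 0.35 as titled).

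The slow form of troponin I stood above its fast form in every experiment. The slow minus fast difference of log2 ratios (Tnni1 minus Tnni2) was 0.76 in experiment 1, 0.39 in experiment 2 and 1.11 in experiment 3. The mean was 0.75 ± 0.36 (SD, n = 3), a 1.69-fold shift of the slow to fast ratio in stimulated fibres. An exact sign-change permutation test over the 3 experiments gave a two-sided p of 0.25, the smallest that 3 experiments allow, and 0.31 after Benjamini-Hochberg adjustment over the 5 differences tested. By array the difference was 0.76 and 0.77 in experiment 1, 0.66 and 0.11 in experiment 2, and 1.00 and 1.22 in experiment 3, with the Cy3 array first. On all 6 arrays every Tnni1 spot lay above every Tnni2 spot. Of the 28 pairs among the 8 complete probe sets, 21.4% were separated in this way, and the choice to count them was made after the values were seen. Of the 13 pairs with Tnni1 or Tnni2, 4 were among those 6, and of the 13 pairs with Tnnc1 or Tnnc2, 0 were. The Tnni1 and Tnni2 difference ranked 7 of the 28 by size. With experiment 1 turned, its difference was -0.76, the mean was 0.24 ± 0.95 and the exact permutation p was 0.75.

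The slow and fast forms of troponin C showed no common order. The slow minus fast difference (Tnnc1 minus Tnnc2) was 0.097 in experiment 1, -0.14 in experiment 2 and -0.92 in experiment 3, with a mean of -0.32 ± 0.53 (SD, n = 3). The exact permutation p was 0.5, and the mean was smaller than the spread between experiments. By array the difference was 0.071 and 0.12 in experiment 1, 0.0052 and -0.28 in experiment 2, and -0.91 and -0.94 in experiment 3. Tnnc1 and Tnnc2 spots overlapped on 3 arrays, both of experiment 1 and the Cy3 array of experiment 2. On the other 3 arrays every Tnnc1 spot lay below every Tnnc2 spot. The order in experiment 1 depended on the spots used. On its Cy3 array 1 Tnnc2 spot lay at -0.69, with the other Tnnc2 spots between -0.27 and -0.054. From the last 3 spots alone the mean difference over the experiments was -0.37, with an exact permutation p of 0.25, the smallest possible. From the first 3 spots it was -0.27, with an exact permutation p of 0.75. Experiment 3 carried most of the mean, which was -0.021 without it and -0.53 without experiment 1. Turning experiment 1 put the difference below 0 in 3 of 3 experiments, with a mean of -0.39 ± 0.47 and an exact permutation p of 0.25.

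**Figure D2:**
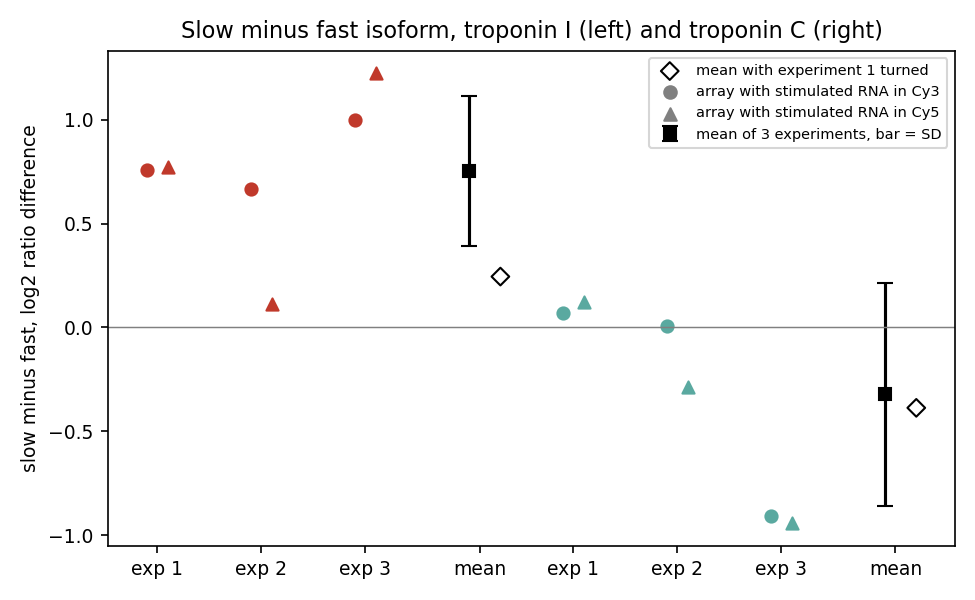
Slow minus fast difference of log2 ratios (vertical axis) for troponin I on the left and troponin C on the right, by experiment and array, with the mean and SD of the 3 experiments as a square and bar and the mean with experiment 1 turned as an open diamond. The troponin I points all lie above 0, between 0.11 and 1.22, and the troponin C points lie between -0.94 and 0.12.

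The slow minus fast difference was larger for troponin I than for troponin C in each experiment. Troponin I minus troponin C was 0.67, 0.53 and 2.03 in experiments 1, 2 and 3, with a mean of 1.08 ± 0.83 (SD, n = 3) and an exact permutation p of 0.25. Without experiment 3 the mean was 0.60. Turned, experiment 1 brought the mean to 0.63 ± 1.35, with an exact permutation p of 0.75. Between the slow forms, Tnni1 minus Tnnc1 was 0.45, 0.00083 and 0.93 by experiment, with a mean of 0.46 ± 0.46 and an exact permutation p of 0.25. That mean was 0.23 without experiment 3 and 0.69 without experiment 2. Turned, experiment 1 gave -0.45 for the slow forms, with a mean of 0.16 ± 0.70, a positive sign in 2 of 3 experiments and an exact permutation p of 0.75. Between the fast forms, Tnni2 minus Tnnc2 was -0.22, -0.53 and -1.11, with a mean of -0.62 ± 0.45 and an exact permutation p of 0.25. That mean was -0.37 without experiment 3. The slow forms thus differed least in experiment 2, and the fast forms were in the same order in all 3 experiments with directions as titled. Turned, experiment 1 gave 0.22 for the fast forms, so that 2 of 3 experiments kept that order, and the mean was -0.47 ± 0.66.

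Among the 15 tested probe sets, Tnni1 ranked 4 from the highest log2 ratio, Tnnc2 ranked 6, Tnnc1 ranked 10 and Tnni2 ranked 11. Turning experiment 1 placed Tnni1 at 5, Tnnc2 at 1, Tnnc1 at 9 and Tnni2 at 12. The median of the 4 was 0.022, against -0.091 over all tested sets. By the smallest mean absolute difference of log2 ratio over the 6 arrays, the sets nearest to Tnni1 among the 14 others tested were Myh7, the slow myosin heavy chain, at 0.147 and Mb, the oxygen-binding protein myoglobin, at 0.152. Nearest to Tnni2 were Pvalb, the calcium buffer parvalbumin of fast fibres, at 0.219 and Calm2, a calmodulin gene, at 0.260. Tnnc1 was nearest to Mylpf, the fast regulatory myosin light chain, at 0.249 and to a set without a gene symbol, probes 19 to 24, at 0.249. Tnnc2 was nearest to Myh7 at 0.253 and to Mylpf at 0.285. These distances describe 6 arrays of shared RNA extracts and carry no test.

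**Figure D3:**
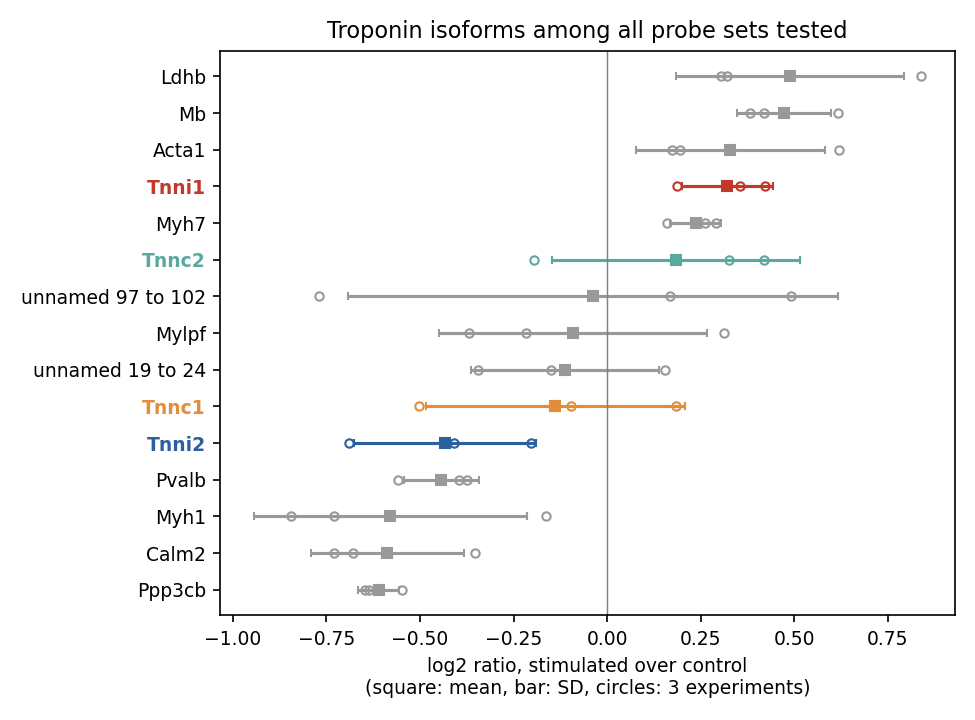
Mean log2 ratio of stimulated over control RNA (horizontal axis) of the 15 tested probe sets, with the SD of 3 experiments as a bar and the experiments as circles. Tnni1 and Tnnc2 lie above 0 at 0.32 and 0.18, and Tnnc1 and Tnni2 lie below it at -0.14 and -0.43.

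Other genes of the array gave the surroundings of these values, among which 46.7% of all tested sets were called, 33.3% as lower and 13.3% as higher. Of the fast contractile list, 4 of 9 genes were on the array and 3 were tested, and 2 of them fell in stimulated fibres. They were Myh1, a fast myosin heavy chain, at -0.58 (limma adjusted p 0.0237) and Pvalb at -0.44 (limma adjusted p 0.0257). Of the slow contractile list, 2 of 7 genes were on the array and 1 was tested, and it did not pass. Of the calcium signalling list, 2 of 11 genes were tested and both fell: Ppp3cb, a catalytic subunit of calcineurin, at -0.61 (limma adjusted p 0.0159) and Calm2 at -0.59 (limma adjusted p 0.0162). Of the oxidative and glycolytic list, 2 of 4 genes were tested and both rose: Mb at 0.47 (limma adjusted p 0.0237) and Ldhb, a lactate dehydrogenase subunit, at 0.49 (limma adjusted p 0.0257). The 1 gene of the common sarcomere list that was tested did not pass. With experiment 1 turned, limma called 0 of the 15 sets, with 0 at an unadjusted p under 0.05. All calls were also lost without experiment 1 (6 at an unadjusted p under 0.05), without experiment 2 (5) and with a minimum of 1 spot (9).

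Neither slow minus fast difference changed its sign under the 15 other settings run, but some of these settings could not change it. Spot minimums of 1 and 5 left each troponin value as it was, since all 4 genes had 6 spots on each array. Centring an array cancels in a difference taken within it. The header day of experiments 1 and 2 is the same selection as leaving out experiment 3. Over the 15 settings, the slow minus fast difference of troponin I lay between 0.24 and 0.94, and that of troponin C between -0.53 and -0.021. The Tnni2 log2 ratio stayed below 0 in all 17 settings tried and kept its call in 7 of them.

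**Figure D4:**
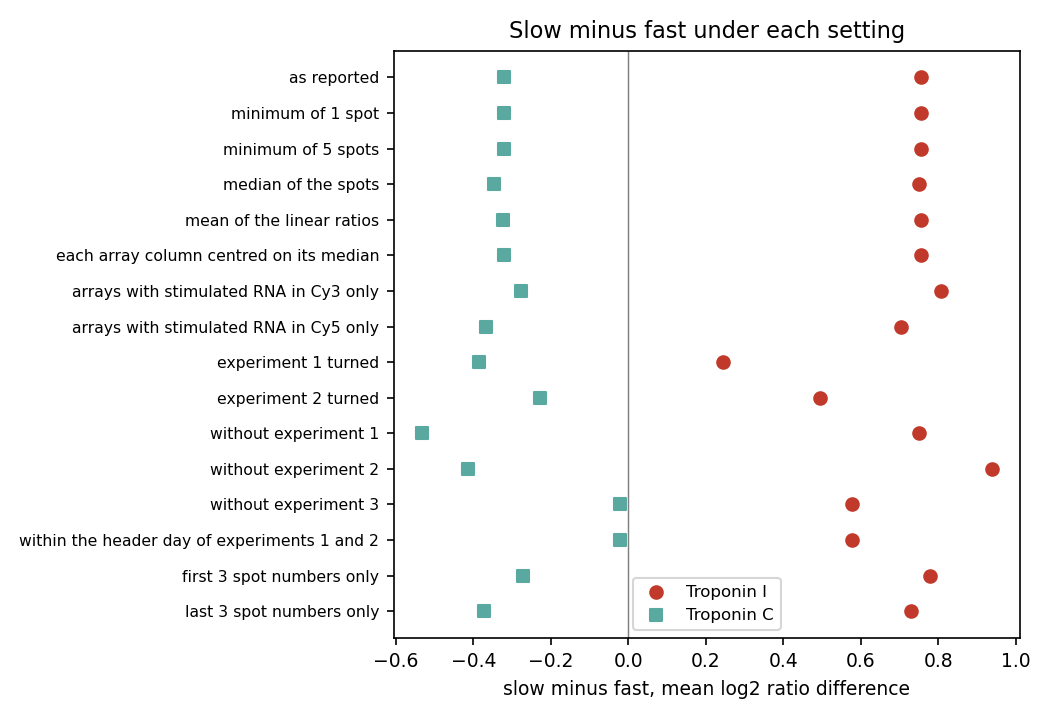
Slow minus fast difference of log2 ratios (horizontal axis) for troponin I and troponin C under the main setting and each alternative. The troponin I values lie between 0.24 and 0.94 and the troponin C values between -0.53 and -0.021, with the lowest troponin I value when experiment 1 is turned.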

How the data were processed

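Measurements came from 6 arrays of 2 colours, from 3 experiments with a dye swap each. Per the labels' protocols, total RNA was amplified and coupled to Cy3 or Cy5. Each deposited value is the linear ratio of the channels at a spot, and the labels say that the mean over 6 spots of a gene was used. How these ratios were scaled, centred and corrected for background, and why some cells are empty, is not given in the sources used here. Column medians were 0.974, 1.036, 1.074, 0.938, 0.978 and 1.264. The scanner files, per the file headers, list the deposited intensity of 144 spots and of the background around them, with no gene names. They had a median signal over background of 2.60 to 4.49. The number of arrays limits the precision.

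Ratios were turned to stimulated over control by the sample titles, converted to log2, averaged over the spots of a gene (at least 3 of 6 with a value) and over the dye swap. On 1 array, 6 values of exactly 1 of 1 probe set were left out as filler. Means of 3 experiments were tested against 0 with limma 3.58.1 (R 4.3.3, lmFit and eBayes, two-sided, Benjamini-Hochberg over 15 sets, threshold 0.05). Differences between isoforms used an exact sign-change permutation test. Scripts were tested on simulated data, and figures were drawn with matplotlib 3.10.9. The labels call the experiments independent, and the arrays of a swap counted as 1 replicate.

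For scanner intensities, limma's normexp (offset 50) and loess were used. To name scanner spots, their ratios were set against the table, and a match needed a mean residual of at most 0.12 log2, with every other set 2 or more times farther away. This accepted 0 of 15 sets, 0 with the arrays of experiment 2 exchanged, 0 without background correction, and 1, the member Tnni1, with median centring in place of loess. Scanner spots were therefore not named. Stimulated and control RNA are paired by design, since both lie on 1 array. Deviations of same-numbered arrays from the mean of their dye orientation correlated at 0.82, 0.68 and 0.82 over 15 sets. Gene symbols are those of GEO's platform annotation, and 4 of 4 members matched RefSeq by gene number. All 4 members are described in full, other genes of the lists are named where they passed the threshold, and for each member the 2 nearest sets are named. Members and lists were chosen with earlier results of these data known. Alternatives were the minimum number of spots, the summary of spots, centring, each dye orientation, experiment 1 turned, experiment 2 turned (added after the data were seen), each experiment left out, the experiment as a block, and the day in the scanner headers.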

Additional observations from a re-analysis of the deposited data

How the results depend on the processing

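Limma called 7 of 15 probe sets. It called 0 of 16 with a minimum of 1 spot (9 at an unadjusted p under 0.05) and 4 of 10 with a minimum of 5 spots. It called 0 of 15 when only arrays with stimulated fibres in Cy5 were used (5 unadjusted), against 6 of 16 from the Cy3 arrays. It called 0 of 15 with experiment 1 turned and 0 with experiment 2 turned, an alternative added after the data were seen (0 unadjusted in both). Leaving out 1 experiment gave 0 to 5 calls: 0 without experiment 1 (6 unadjusted), 0 without experiment 2 (5 unadjusted) and 5 without experiment 3. Centring each array on its median shifted the median of the tested sets by 0.053 and gave 2 higher and 3 lower calls, against 2 higher and 5 lower. With the experiment as a replicate block over 6 arrays the count was 7, and pairing in this way changed no call of a troponin gene.

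The Tnni2 log2 ratio lost its call at a minimum of 1 spot (-0.43, limma adjusted p 0.0640) and with centring (-0.38, 0.0552). It also lost it on the Cy5 arrays alone (-0.39, 0.168), though not on the Cy3 arrays alone (-0.48, 0.0270), from the last 3 spots (-0.42, 0.0724), with experiment 1 turned (-0.16, 0.892) or experiment 2 turned (-0.30, 0.891) and within the header day of experiments 1 and 2 (-0.31, 0.148). Leaving out an experiment gave -0.55 to -0.31. With the header day as a block it was -0.50 (limma adjusted p 0.0177). With experiment 2 turned, the Tnni1 ratio was 0.20 and the Tnnc1 ratio -0.26. The Tnnc1 ratio turned to 0.044 without experiment 3 and, which is the same fit, within the header day of experiments 1 and 2. Leaving out an experiment gave -0.30 to 0.044. Fewer sets or experiments enter some of these fits, and otherwise the cause was not tested. Tnnc2 (-0.033 to 0.37) changed sign with experiment 2 turned (-0.033), and Tnni1 (0.084 to 0.39) kept its sign. Neither passed in any of 17 settings. The difference between troponin I and troponin C kept its sign in 15 settings (0.60 without experiment 3 to 1.35 without experiment 2). For this difference too, the spot minimums and centring could not change the value, and the header day repeats the fit without experiment 3. With experiment 2 turned it was 0.72 (exact permutation p 0.5). The slow minus fast difference was then 0.50 for troponin I (exact permutation p 0.5) and -0.23 for troponin C. Experiment 3 alone makes up the other header day, so day and experiment cannot be told apart. The planned scanner alternatives were not run: 1 set, Tnni1, was matched, under median centring only, so no difference between isoforms could be formed. With 3 experiments no exact test could reach 0.05.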
